A study of Mus musculus with 48 samples.

Results

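The genes described here are 69 of the 20171 genes of a mouse embryonic stem cell data set, chosen by their measured values as RNAs that came down with HA-tagged Tnrc6a and were higher in the lysate of Ago2 knockout cells, with a limit on their rise in Upf1 knockout cells. RNA was sequenced from whole lysates (inputs) and from what HA beads recovered from the same lysates (immunoprecipitates, IP). All cells carried the GFP_5xT71BS reporter line background, a 129S6/SvEvTac embryonic stem line with stably transfected FLAG-Cas9::T2A::Blasticidin, grown on gelatin with serum and LIF. The 4 genotypes were that untagged line, HA-AVI-Tnrc6a (an HA and AVI tag on Tnrc6a, here HA-Tnrc6a), HA-AVI-Tnrc6a with Ago2-/- (here Ago2KO) and HA-AVI-Tnrc6a with Upf1-/- (here Upf1KO), so both knockouts also carried the tag, and the untagged line lacked it. Each of the 8 groups of genotype and fraction had 6 libraries, in columns 1 to 3 and 4 to 6 of the count table. The labels name an experiment 3 and an experiment 4 but the column headers do not, so the columns are treated as a first and a second column set. How many clones stand behind a genotype is not stated.

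The rule averaged log2(CPM + 1) over the 6 libraries of a group, where CPM is the count divided by the library total and multiplied by 1000000. It asked for a specific enrichment of at least 2, that is, IP minus input in HA-Tnrc6a less the same difference in the untagged cells. It asked further for an Ago2KO input at least 0.4 above the HA-Tnrc6a input, and for an Upf1KO input less than 0.7 above it. Of the 775 genes with that enrichment, 706 were not members. The limit on Upf1KO removed 1 gene, Ak4, from the 70 that met the other conditions. At the enrichment threshold the nearest genes were Slc39a1 (2.08) and Frmd4a (2.10) inside, and Hbp1 (1.97) and Cavin3 (1.97) outside. At the Ago2KO threshold they were Skida1 (0.40) and Zeb1 (0.41) inside, and Gm26787 (0.39) and Cdk19 (0.39) outside. At the Upf1KO limit, Gpt2 (0.62) and Usp46 (0.61) lay inside and Ak4 (1.06) outside.

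Argonaute proteins hold a microRNA and pair it through its seed with sites on messenger RNAs. Tnrc6a, a GW182 protein, binds Argonaute and recruits deadenylases and other decay factors, so mRNAs bound by this complex are commonly repressed and degraded. Ago2 is one of the 4 mouse Argonautes, and Upf1 is the helicase at the centre of nonsense-mediated decay, a separate route that removes mRNAs with premature stop codons among others. In embryonic stem cells the miR-290 family is the abundant microRNA family, while let-7 marks differentiated cells.

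To show what a seed is, and because Lefty1 and Ei24 of the 69 genes also stand in the list of miR-290 family targets used here, 3 mature miR-290 cluster microRNAs and let-7a are printed with bases 2 to 8 in capitals, from RefSeq in GRCm38.p6.
mmu-miR-291a-3p: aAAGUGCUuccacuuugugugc
mmu-miR-294-3p: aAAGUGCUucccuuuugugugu
mmu-miR-295-3p: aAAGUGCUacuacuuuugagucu
mmu-let-7a-5p: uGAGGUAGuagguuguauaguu
The first 3 lie on the plus strand at chr7:3218968-3218989, chr7:3220691-3220712 and chr7:3220815-3220837, and share the seed AAGUGCU, which 5 of the 1679 mature microRNAs of the reference table carry. The let-7a copy shown lies on the minus strand at chr13:48538239-48538260, and its seed GAGGUAG is carried by 11. No transcript sequence was used here, so sites for these seeds in the 69 RNAs were not searched.

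The library labels were checked on the targeted genes and on markers. Ago2 mRNA lay at 101 to 106 CPM in the first and 136 to 149 CPM in the second column set of the Ago2KO inputs, against 220 to 234 and 333 to 360 CPM in HA-Tnrc6a inputs. Upf1 mRNA was not lower in the inputs labelled Upf1KO, at 140 to 141 and 154 to 161 CPM against 83.2 to 89.5 and 107 to 111 CPM in HA-Tnrc6a, so that knockout is referred to by its label. In those inputs 17 of 18 nonsense-mediated decay factors and targets rose and 1 fell (edgeR, adjusted over all genes), with 29.5% of all genes higher and 29.0% lower. None of the 16 pluripotency markers stayed under 1 CPM throughout a group of inputs. Library totals were 15383953 to 19595405 counts for inputs and 11471544 to 18344233 for IPs of the first column set, and 26458831 to 37179105 and 25724085 to 73845953 for the second. The HA-Tnrc6a input in column 3 and the IP labelled Upf1KO in column 4 stood apart most from their replicates. To a lesser degree others did, among them the untagged input in column 1 and the HA-Tnrc6a IP in column 4, both used by the rule. The untagged IPs of the first set all differed among themselves. Without the HA-Tnrc6a input in column 3 the rule gave 61 genes, 57 of them among the 69.

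Levels of markers of other cell types differed between the inputs. All 11 endoderm markers tested were lower in Ago2KO than in HA-Tnrc6a inputs (median log2 fold change -1.96, against -0.01 for all genes), and their summed level was 138 to 186 CPM against 325 to 415 CPM. Untagged inputs, at 157 to 367 CPM, overlapped the Ago2KO inputs in that sum. Of 5 neuroectoderm markers tested, 4 were higher and 1 lower (edgeR), with summed levels of 150 to 183 CPM against 126 to 163 CPM. Among the 15 pluripotency markers outside the 69, 10 were higher and 1, Klf4, was lower. Over all genes 15.7% were higher and 15.2% lower in Ago2KO inputs (edgeR). In inputs labelled Upf1KO the summed endoderm level ran from 137 to 470 CPM and the neuroectoderm level from 97.6 to 111 CPM. None of the endoderm markers was at 0 in all 6 libraries of an input group. Foxa2 stayed under 1 CPM in all untagged, Ago2KO and Upf1KO inputs, and Sox17 in all Ago2KO inputs. Their part in the members' values was not tested. In bulk lysates, fewer cells of a type and less RNA per cell cannot be told apart.

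The 69 genes spread over 18 chromosomes. RefSeq matched 65 of them, 62 as protein coding, and 31 overlapped another annotated gene. Among the 65 matched genes, members overlap each other in 3 places, Uchl1 with Uchl1os, Gnb5 with Gm19531 and Usp46 with Usp46os2, and since the sources used here do not say whether counting used strand, the values of these pairs are not separate evidence. Their median gene length was 4933 bases, against 3309 for the whole table and 5045 for the other bound genes. In the 250 bases upstream of the start, the GC box GGGCGG was present in 66.7% of the 51 members with a promoter entry and in 57.8% of table genes, CCAAT in 49.0% and 37.0%, and TATAAA in 7.84% and 6.53% (either strand, no other motif searched).

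The lysate values that chose the members are a description. Their specific enrichment ran from 2.08 to 7.57 with a median of 2.79, and the Ago2KO difference from 0.40 to 1.07 with a median of 0.52, both on the log2(CPM + 1) scale. All 69 were higher in Ago2KO inputs by the edgeR fit (15.7% of all genes were), which the rule had fixed. The difference was above 0 in both column sets for all 69, at least 0.4 in both for 51, and in 64 the Ago2KO inputs lay above the HA-Tnrc6a inputs without overlap in both sets, against 7.47% of all genes. All 3 conditions held in both sets for 44.

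The rule did not make these RNAs specific to Ago2KO. In inputs labelled Upf1KO their difference from HA-Tnrc6a ran from -1.14 to 0.62 with a median of 0.10, below 0 for 27, between 0 and 0.4 for 32 and at 0.4 or more for 10 (Serpinb9b, Pou6f1, Gpt2, Usp46os2, Entpd5, Plekhm1, Zfp651, Phlpp2, Usp46 and Zeb1, some of them named after their values were seen). By the edgeR fit 29 members were higher there, 18 lower and 22 did not pass, beside 29.5% and 29.0% of all genes. The sign differed between the column sets for 22 members, and 5 members (Lefty1, Gpt2, Usp46os2, Usp46 and Skida1) reached 0.7 in a set. Lefty1 is the clearest case, with a difference of 0.90 in the first and -0.44 in the second set.

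**Figure D1:**
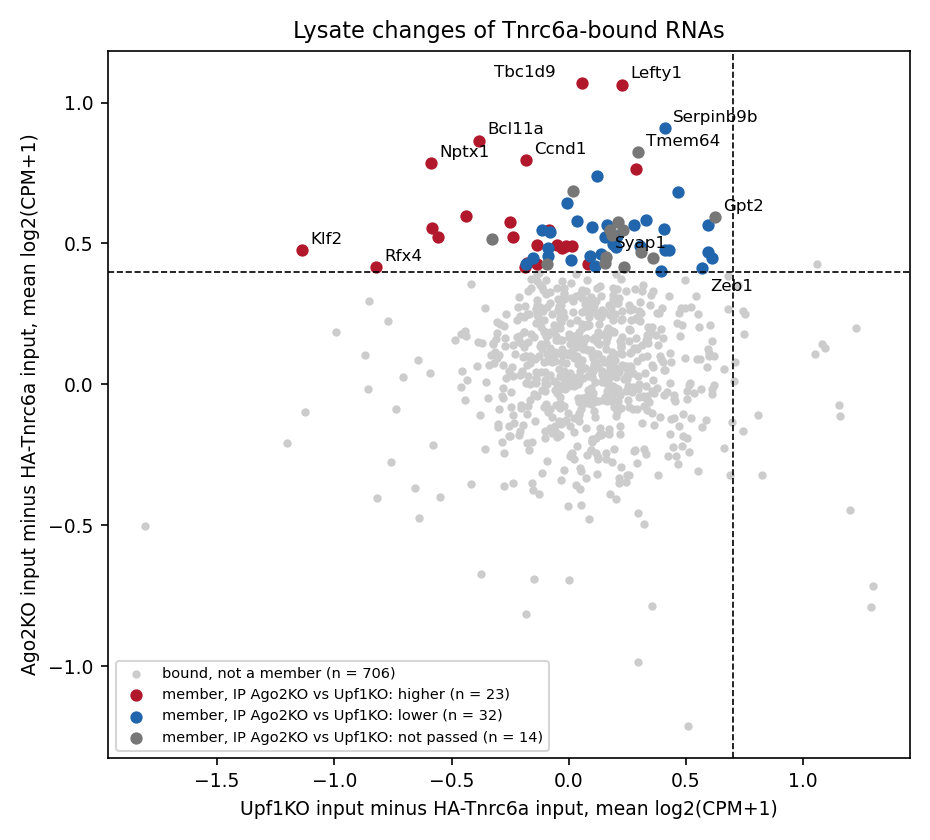
Difference of the Upf1KO input (x axis) and the Ago2KO input (y axis) from the HA-Tnrc6a input, in mean log2(CPM + 1) over 6 libraries, for the 775 bound genes. Dashed lines mark the thresholds 0.7 and 0.4. Coloured points are the 69 members by their IP test between the knockouts (23 higher, 32 lower, 14 not passed), grey points the 706 other bound genes. Of the 23 members higher in the Ago2KO IP, 18 lie below 0 on the x axis.

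The level of these RNAs in the IPs of both knockouts did not enter the rule, but the IPs came from the same lysates as the inputs that did. A comparison of these IP levels is therefore not independent of the choice of members. It asks whether RNAs higher in the Ago2KO lysate also came down with Tnrc6a at a higher level than in Upf1KO. The reference here is Upf1KO, while the rule compared with HA-Tnrc6a, and 10 members were at least 0.4 higher in Upf1KO inputs. The members did not move as a group. In edgeR's quasi-likelihood test of Ago2KO against Upf1KO IPs, 23 of the 69 were higher in Ago2KO, 32 were lower and 14 did not pass, beside 27.1% higher and 30.1% lower among 18886 genes. That is 33.3% and 46.4% of the members, close to the 30.2% and 48.9% of the 706 other bound genes. The median log2 fold change was -0.13 for members, -0.15 for the other bound genes and -0.01 for all genes, and members ranged from -1.20 to 2.44. The sign was the same in both column sets for 61 members. Without overlap in both sets, 20 members were above and 26 below, against 14.5% and 17.5% of all genes. Without the column 4 IP labelled Upf1KO the counts were 24 higher and 28 lower.

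**Figure D2:**
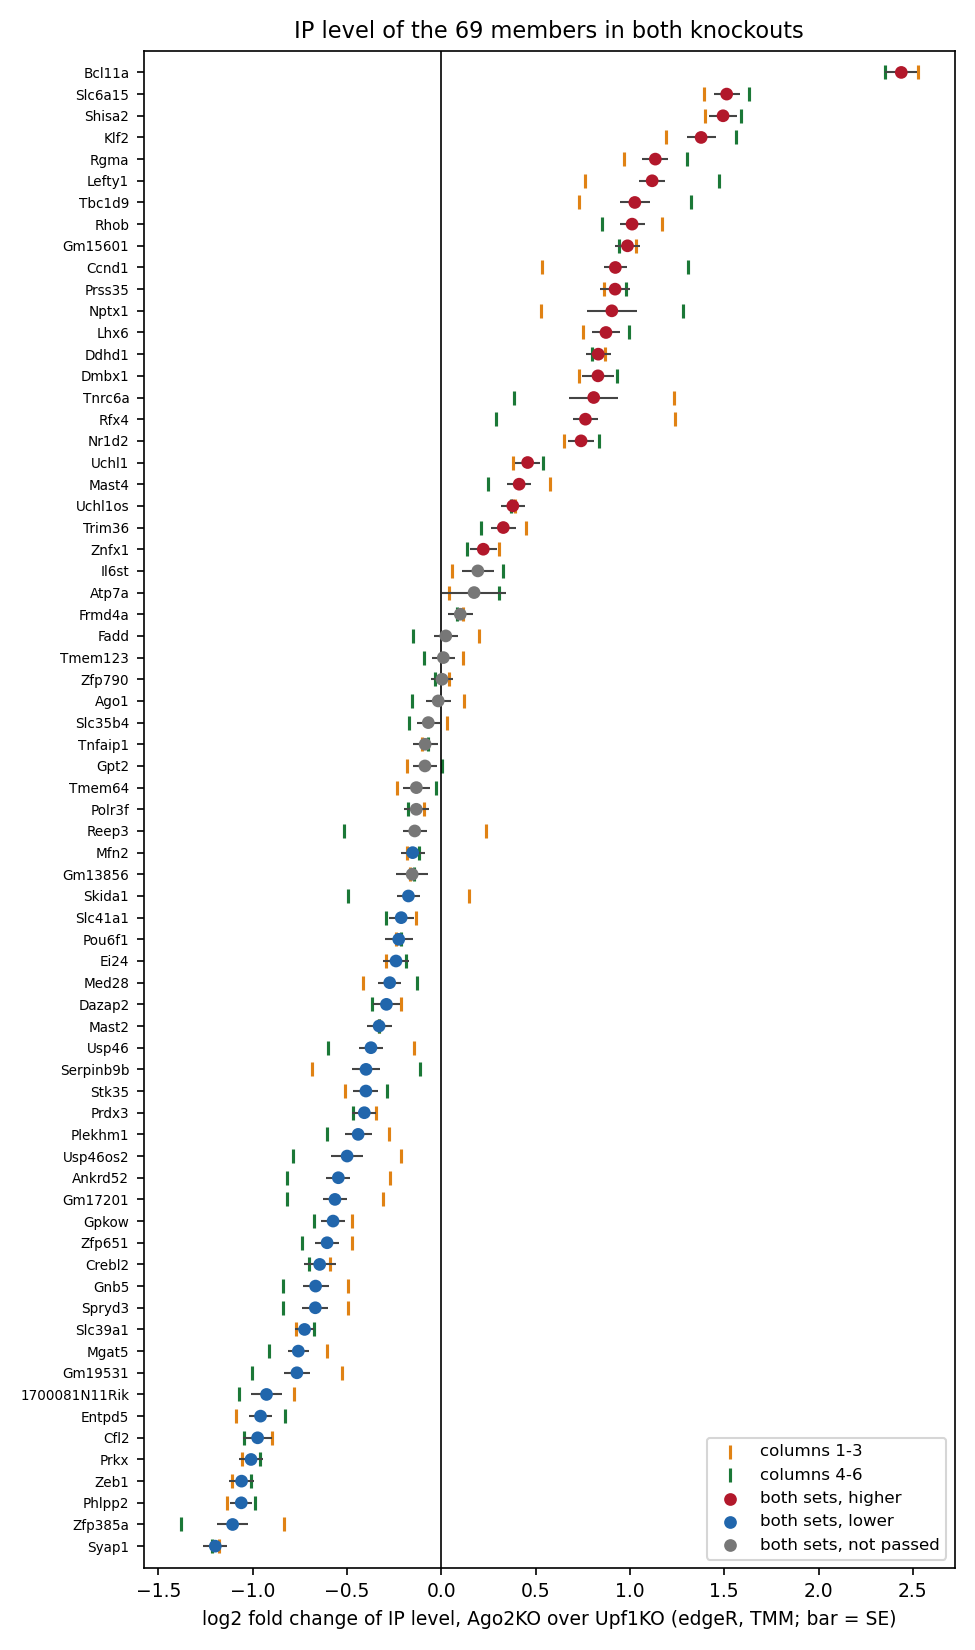
Log2 fold change of the IP level, Ago2KO over Upf1KO, for each of the 69 members (edgeR, bars are standard errors), with the values of columns 1-3 and columns 4-6 as ticks. The bars hold the spread within column sets, not between them. Values run from -1.20 for Syap1 to 2.44 for Bcl11a. The 2 column sets lie on the same side of 0 for 61 members.

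Lefty1, a secreted antagonist of Nodal, was among the members with the largest lysate difference. In the first column set its inputs read 6.13, 6.25 and 7.83 CPM in HA-Tnrc6a, 20.6, 20.6 and 25.3 CPM in Ago2KO and 13.3, 13.3 and 13.5 CPM in Upf1KO. In the second set they read 3.19, 3.55 and 3.69 CPM, 5.23, 5.58 and 5.77 CPM, and 2.10, 2.26 and 2.53 CPM. The Ago2KO inputs were highest in both sets, while those labelled Upf1KO lay above HA-Tnrc6a in the first set and below it in the second. Its IPs read 132, 141 and 162 CPM in Ago2KO against 85.5, 90.3 and 90.5 CPM in Upf1KO in the first set, and 44.6, 46.4 and 50.8 CPM against 15.2, 15.7 and 17.8 CPM in the second. The groups did not overlap in either set, and the log2 fold change was 1.12 ± 0.07 (SE, edgeR adjusted p = 1.2e-12). The first set gave 0.76 and the second 1.47, and the SE does not hold that difference. The HA-Tnrc6a IPs, at 19.6 to 44.9 CPM, and the untagged IPs, at 3.25 to 5.77 CPM, lay below the Ago2KO IPs of the same set.

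Klf2, a transcription factor of naive pluripotency, had the lowest Upf1KO input difference of all members. Its inputs read 337, 363 and 375 CPM in HA-Tnrc6a, 498, 507 and 531 CPM in Ago2KO and 181, 194 and 197 CPM in Upf1KO in the first set, and 278, 280 and 313 CPM, 383, 387 and 412 CPM, and 107, 112 and 115 CPM in the second. The order Upf1KO, HA-Tnrc6a, Ago2KO held in both sets without overlap. Over both sets the untagged inputs averaged 273 CPM, against 325 CPM in HA-Tnrc6a. The IPs of the tagged lines kept that order. They read 1765, 1931 and 2245 CPM in Upf1KO, 2457, 2771 and 2870 CPM in HA-Tnrc6a and 4018, 4305 and 4720 CPM in Ago2KO in the first set. In the second they read 1198, 1220 and 1325 CPM, 2094, 2414 and 2459 CPM, and 3774, 3795 and 4077 CPM. The log2 fold change of Ago2KO over Upf1KO was 1.38 ± 0.08 (SE, edgeR adjusted p = 3.6e-13).

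Ccnd1 encodes cyclin D1, which drives progress through the G1 phase with its kinase partners. Its inputs were 77.3, 79.8 and 80.8 CPM in HA-Tnrc6a, 143, 145 and 157 CPM in Ago2KO and 103, 105 and 105 CPM in Upf1KO in the first set, and 141, 143 and 144 CPM, 231, 233 and 234 CPM, and 82.3, 84.9 and 85.4 CPM in the second. Of the tagged lines Ago2KO was highest in both sets, while Upf1KO lay above HA-Tnrc6a in the first and below it in the second. Over both sets the untagged inputs averaged 88.3 CPM, against 111 CPM in HA-Tnrc6a and 94.3 CPM in Upf1KO. In the IPs, Ago2KO read 418, 433 and 448 CPM against 292, 303 and 336 CPM in Upf1KO, and 540, 541 and 579 CPM against 206, 215 and 216 CPM, for a log2 fold change of 0.92 ± 0.06 (SE, edgeR adjusted p = 5.5e-12). The first set gave 0.54 and the second 1.31, a difference outside that SE. Of the 25 other genes of the G1 and retinoblastoma list, 10 were higher and 6 lower in Ago2KO inputs (edgeR), with a median of -0.01. Over all genes 15.7% were higher and 15.2% lower there.

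Bcl11a, a zinc finger transcription factor, showed the largest IP difference on very few input reads. Its inputs lay between 0.489 and 1.70 CPM in HA-Tnrc6a, between 1.37 and 3.78 CPM in Ago2KO and between 0.0751 and 1.07 CPM in Upf1KO. The Ago2KO inputs were above those of HA-Tnrc6a within each set. Its IPs read 47.8, 48.5 and 52.3 CPM in Ago2KO against 8.55, 9.13 and 9.16 CPM in Upf1KO in the first set, and 16.4, 18.1 and 19.5 CPM against 2.77, 3.24 and 4.05 CPM in the second. The log2 fold change was 2.44 ± 0.09 (SE, edgeR adjusted p = 9.9e-17), and the HA-Tnrc6a IPs, at 13.3 to 20.0 CPM, lay between the knockouts in the first set and overlapped Ago2KO in the second.

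Further RNAs that were higher in the Ago2KO than in the Upf1KO IP spanned receptors, transporters and trafficking. Slc6a15, a neutral amino acid transporter, read 221 to 275 and 167 to 177 CPM against 93.5 to 108 and 48.0 to 56.9 CPM (log2 fold change 1.51). Shisa2, an endoplasmic reticulum protein that holds back Wnt and FGF receptors, had a log2 fold change of 1.49. Rgma, a co-receptor of BMP signalling, had 1.13, Rhob, a small GTPase, 1.01 and the unnamed locus Gm15601 0.99. Tbc1d9, a Rab GTPase-activating domain protein, had the largest lysate difference of all members (1.07), with 4.87 to 6.67 and 4.29 to 4.48 CPM in Ago2KO inputs against 1.58 to 2.27 and 1.61 to 1.96 CPM in HA-Tnrc6a, and its IP log2 fold change was 1.03. Nr1d2, a nuclear receptor of the circadian clock, was higher in the Ago2KO IP by 0.74 on the log2 scale and Nptx1, a neuronal pentraxin, by 0.90. All of these passed the edgeR test. The Nptx1 IPs overlapped in the first set, and with columns 1 to 3 alone the call was lost (0.52, edgeR adjusted p = 0.074). Against HA-Tnrc6a IPs, in mean log2(CPM + 1), Nptx1 stood at -0.03 in Ago2KO and -0.85 in Upf1KO. The other RNAs of this paragraph were above HA-Tnrc6a in the Ago2KO IP.

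The opposite pattern, a higher lysate level and a lower IP level in Ago2KO, was led by Syap1, a synapse-associated protein. Its inputs read 17.4, 18.1 and 21.0 CPM in HA-Tnrc6a, 28.1, 29.4 and 32.7 CPM in Ago2KO and 19.9, 21.9 and 23.2 CPM in Upf1KO in the first set, and 21.8, 22.0 and 23.5 CPM, 30.4, 31.0 and 33.7 CPM, and 24.2, 24.3 and 25.3 CPM in the second. Its IPs read 43.1, 43.2 and 52.2 CPM in Ago2KO against 101, 113 and 113 CPM in Upf1KO and 98.3, 102 and 110 CPM in HA-Tnrc6a in the first set. In the second set they read 53.5, 53.6 and 55.5 CPM against 112, 120 and 128 CPM and 84.7, 86.8 and 98.4 CPM. The Ago2KO inputs were the highest and the Ago2KO IPs the lowest of the tagged lines in both sets (log2 fold change -1.20 ± 0.06 against Upf1KO, SE, edgeR adjusted p = 1.8e-13).

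Zfp385a, a zinc finger protein that binds RNA, followed the same order. Its inputs lay at 45.6 to 48.9 and 32.5 to 37.6 CPM in HA-Tnrc6a and at 65.1 to 69 and 49.9 to 52.3 CPM in Ago2KO. Its IPs lay at 497 to 617 and 344 to 351 CPM in Ago2KO, 1005 to 1160 and 773 to 1004 CPM in Upf1KO and 884 to 1217 and 603 to 716 CPM in HA-Tnrc6a. The Ago2KO IPs did not overlap either group, and the log2 fold change against Upf1KO was -1.11 (edgeR adjusted p = 3.1e-11). Prkx, a cyclic AMP dependent kinase, read 48.3 to 52.1 and 39.4 to 42.7 CPM in Ago2KO IPs against 98.9 to 116 and 72.5 to 83.3 CPM in Upf1KO IPs (log2 fold change -1.01). Gnb5, a G protein beta subunit with the second largest specific enrichment (5.16), read 252 to 305 and 183 to 191 CPM against 412 to 431 and 291 to 353 CPM (log2 fold change -0.67).

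Zeb1 and Phlpp2 were lower in the Ago2KO than in the Upf1KO IP as well, but both also had high levels in inputs labelled Upf1KO. Zeb1, a repressor of epithelial genes, read 11.3 to 14.5 and 23.6 to 26.9 CPM in HA-Tnrc6a inputs, 14 to 18.2 and 34.6 to 37.2 CPM in Ago2KO and 18.0 to 21.3 and 34.1 to 37.2 CPM in Upf1KO. Its IPs read 103 to 122 and 167 to 182 CPM in Ago2KO against 238 to 277 and 320 to 349 CPM in Upf1KO (log2 fold change -1.06). Phlpp2, a phosphatase that acts on Akt, read 34.6 to 41.3 and 53.8 to 55.4 CPM against 85.4 to 89.5 and 98.2 to 108 CPM (log2 fold change -1.06). Both passed the edgeR test.

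Other members at the ends of the rule's measures fell on either side of the IP test of Ago2KO against Upf1KO. Serpinb9b, a serine protease inhibitor, had a lysate difference of 0.91. Its inputs read 1.89 to 3.21 and 4.95 to 6.66 CPM in Ago2KO against 0.758 to 1.75 and 1.98 to 2.24 CPM in HA-Tnrc6a. It was lower in the Ago2KO than in the Upf1KO IP by edgeR (log2 fold change -0.40), where the groups overlapped. With columns 4 to 6 alone that call was lost (-0.09, edgeR adjusted p = 0.35). Tmem64, a membrane protein, had a lysate difference of 0.82, with 124 to 134 and 187 to 197 CPM against 59.2 to 68.2 and 118 to 123 CPM, and its IP level did not pass (-0.13). The noncoding Gm19531 and its host region gene Gnb5 had specific enrichments of 4.20 and 5.16, and Gm19531 was lower in the IP by edgeR (-0.77). Skida1, with an enrichment of 4.14, was lower at -0.17, but the value was 0.14 with columns 1 to 3 alone and the call was lost at -0.09 without the column 4 IP labelled Upf1KO. Slc39a1 (-0.73) and Usp46, a deubiquitinase (-0.37), were lower by edgeR, the latter losing its call with columns 1 to 3 alone (-0.15, adjusted p = 0.25). Frmd4a (0.10) and Gpt2, an alanine aminotransferase (-0.09), did not pass. Against HA-Tnrc6a IPs, in mean log2(CPM + 1), the Ago2KO IPs of Serpinb9b and Skida1 were higher, by 0.33 and 0.35. Those of Gm19531, Slc39a1 and Usp46 were lower (-0.41, -0.69 and -0.04).

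**Figure D3:**
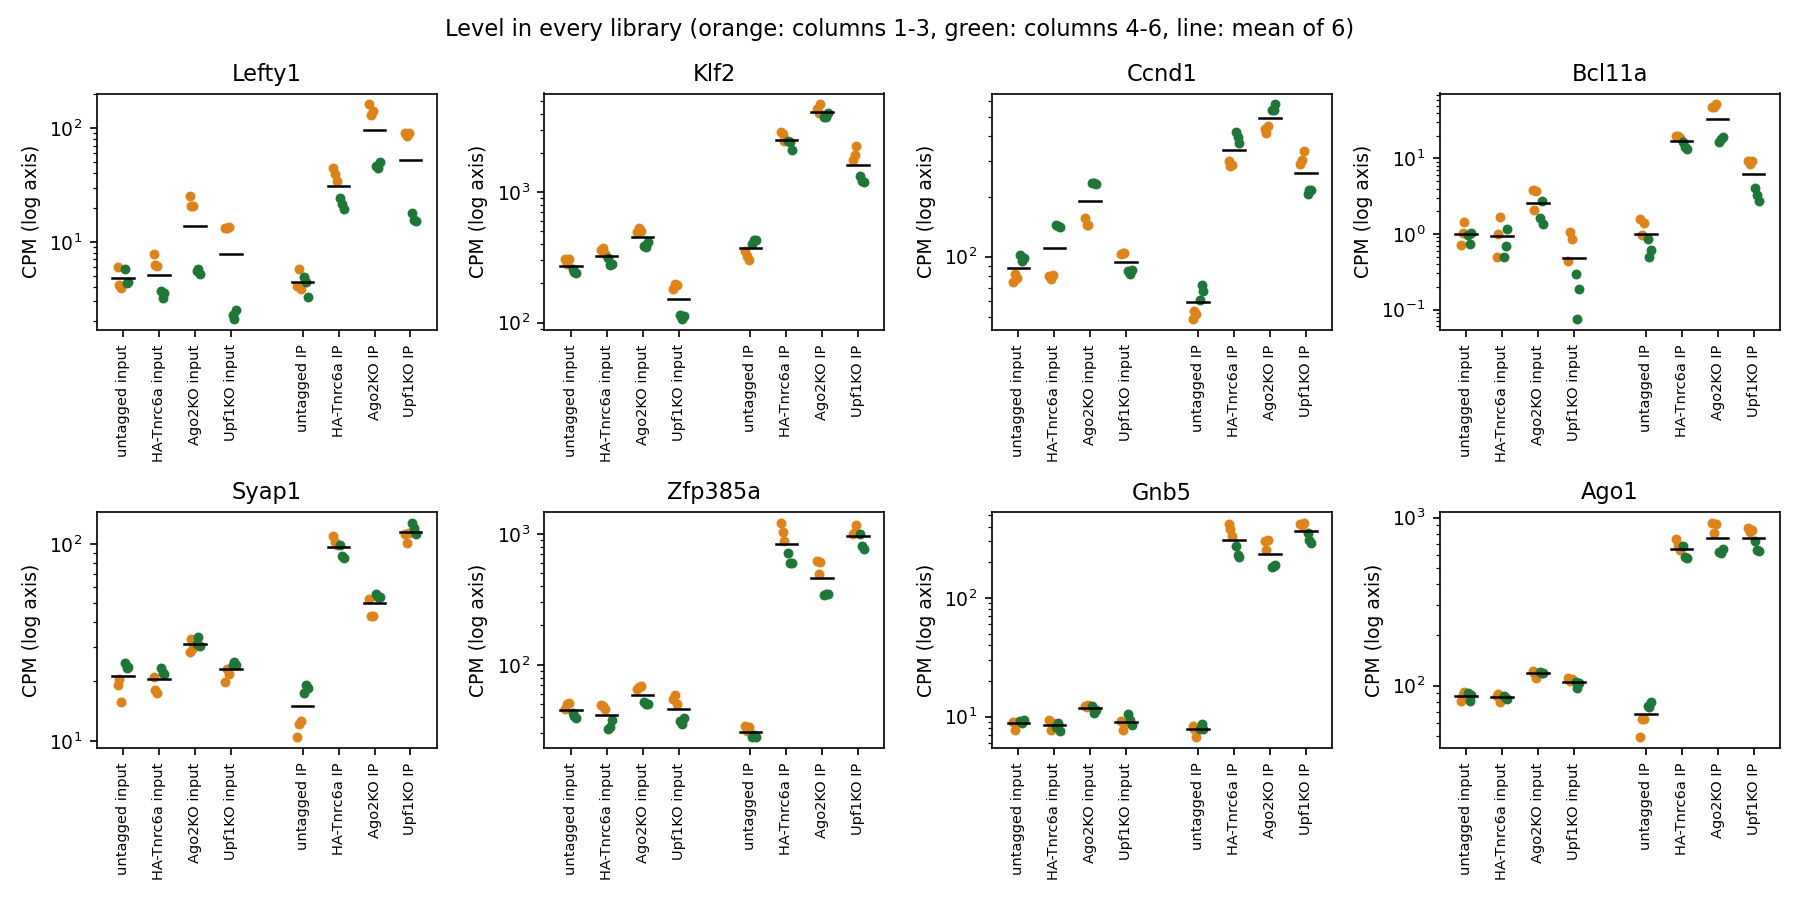
CPM in every library on a log axis for 8 members, inputs on the left and IPs on the right of each panel, with columns 1-3 in orange, columns 4-6 in green and the mean of 6 as a line. For Lefty1, Klf2, Ccnd1 and Bcl11a the Ago2KO mean is the highest in both fractions. For Syap1, Zfp385a and Gnb5 it is the highest among inputs and the lowest of the tagged lines among IPs.

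Components of the silencing pathway itself were among the members. Ago1, another Argonaute, read 79.8 to 89.7 and 83.6 to 86.8 CPM in HA-Tnrc6a inputs, 111 to 122 and 118 to 121 CPM in Ago2KO and 107 to 111 and 97.0 to 106 CPM in Upf1KO. Its IP level did not pass the test between the knockouts (log2 fold change -0.02 ± 0.07, SE, edgeR adjusted p = 0.85). Tnrc6a mRNA had the largest specific enrichment, 7.57, and the tag sits on that gene. It read 71.7 to 82.5 and 93.0 to 101 CPM in HA-Tnrc6a inputs and 105 to 112 and 132 to 143 CPM in Ago2KO inputs. Its IPs read 17107 to 28197 and 8156 to 11138 CPM in HA-Tnrc6a, 36208 to 48332 and 10557 to 14206 CPM in Ago2KO and 17588 to 20887 and 7047 to 11743 CPM in Upf1KO, against 49.1 to 71.9 and 98.0 to 109 CPM in untagged IPs. The knockouts' IPs overlapped in the second set (log2 fold change 0.81 over both sets, edgeR adjusted p = 5.4e-05), and the call was lost with columns 4 to 6 alone (0.41, adjusted p = 0.20). Without Tnrc6a, 22 of 68 members were higher and 32 lower. Of the 10 other silencing factors tested, Tnrc6b, Tnrc6c, Drosha and Dgcr8 were higher in Ago2KO inputs, by 0.34, 0.21, 0.11 and 0.10 on the log2 scale, and Ago2 was lower (edgeR). Over all genes 15.7% were higher and 15.2% lower there.

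Ei24, an endoplasmic reticulum protein induced by p53, and Lefty1 were the members that stood in the miR-290 family target list. Ei24 read 144 to 156 and 147 to 152 CPM in HA-Tnrc6a inputs and 198 to 205 and 216 to 223 CPM in Ago2KO inputs, while its IPs were lower in Ago2KO than in Upf1KO by 0.24 on the log2 scale (edgeR adjusted p = 0.0043), with overlap between the groups. With columns 4 to 6 alone that call was lost (-0.16, edgeR adjusted p = 0.12). Of the 12 other genes of that list tested in inputs, 4 were higher in Ago2KO (Cdkn1a by 0.17, Lefty2 by 0.23, Mbd2 by 0.29 and Smarcc2 by 0.14 on the log2 scale), and 3 were lower (Rbl2 at -0.18, Casp8 at -0.32 and Dkk1 at -2.74). Among those that did not pass were Casp2, Tgfbr2, Arid4b and Rhoc (0.11, -0.30, 0.05 and -0.01). The list's median was 0.02, against -0.01 for all genes, of which 15.7% were higher and 15.2% lower. Cdkn1a, Rbl2 and Casp2 had specific enrichments of 5.57, 4.79 and 4.59, above most members, but no lysate difference of 0.4.

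The remaining lists gave few members, and only 69 of the 20171 genes of the table were members, so this says little about the lists. Among all genes 15.7% were higher and 15.2% lower in Ago2KO inputs (edgeR). Of 14 let-7 targets, none a member, 5 were higher and 3 lower there. Of 26 deadenylation and decapping factors, 5 were higher and 8 lower, of 18 nonsense-mediated decay genes 6 and 4, and of 17 Hippo genes 3 and 5, again with no member. Outside Lefty1, 9 of 23 TGF-beta and Nodal genes were higher and 3 lower. Outside Fadd, the adaptor of death receptors, 2 of 19 apoptosis genes were higher and 6 lower, and outside Ei24, 4 of 15 p53 targets were higher and 6 lower. Fadd's IP level did not pass between the knockouts (log2 fold change 0.02, edgeR adjusted p = 0.77).

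By known role, with groups assembled after the values were seen, 6 of 12 transcription factors and zinc finger proteins were higher in the Ago2KO than in the Upf1KO IP (Klf2, Bcl11a, Nr1d2, Rfx4, Lhx6 and Dmbx1), 5 were lower (Zeb1, Pou6f1, Crebl2, Zfp385a and Zfp651), and Zfp790 did not pass, beside 27.1% higher and 30.1% lower among all genes. Of 5 signalling proteins and receptor regulators, 4 were higher (Lefty1, Rgma, Shisa2 and Nptx1), and Il6st, the gp130 receptor chain that LIF uses, did not pass at 0.19. Of 5 kinases and phosphatases, Mast4 was higher and 4 were lower (Phlpp2, Prkx, Mast2 and Stk35). Among 5 transporters, Slc6a15 was higher, Slc39a1 and Slc41a1, carriers of zinc and magnesium, were lower, and Slc35b4 and Atp7a did not pass. The mitochondrial genes Prdx3 and Mfn2 were lower, and Gpt2 did not pass. These calls are from edgeR. Among the other bound genes 30.2% were higher and 48.9% lower. All role groups, with those of microRNA silencing and of cell cycle and cell death, held 35 of the 69 members. They took in 14 of the 23 higher members, 14 of the 32 lower ones and 7 that did not pass. Gnb5, a G protein subunit (-0.67), and Znfx1, a zinc finger protein (0.22), were among the members that passed the test but were put in no group.

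The members called in each direction in the IP also had different medians in the lysate labelled Upf1KO. The Upf1KO input difference had a median of -0.18 in the 23 members higher in the Ago2KO IP, 18 of them below 0, and of 0.18 in the 32 lower ones, 7 of them below 0. The Ago2KO input difference was similar in both, with medians of 0.52 and 0.50. Against HA-Tnrc6a IPs, the 23 had a median change of 0.69 in Ago2KO (above 0 in 21) and -0.22 in Upf1KO (below 0 in 20), and the 32 had -0.33 in Ago2KO (below 0 in 29) and 0.25 in Upf1KO (below 0 in 1). Both changes share the HA-Tnrc6a IPs, and these groups were formed from the IP contrast, so the values are a description.

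Recovery is the IP level minus the input level of a genotype. Over the 69 the median was 2.65 in HA-Tnrc6a, 2.14 in Ago2KO and 2.56 in Upf1KO, and -0.31 in untagged cells. Recovery was lower in Ago2KO than in HA-Tnrc6a for 56 members (median change -0.53, against -0.09 for the other bound genes), and lower in Upf1KO for 33 (median change 0.02). The Ago2KO and HA-Tnrc6a inputs enter the rule and this change with opposite signs, so the fall in Ago2KO is in part fixed by the choice of members and is not a result about them. It was below 0 in 32 of the 32 members lower in the Ago2KO IP (median -0.84) and in 11 of the 23 higher ones (median 0.14). Shisa2 had the highest recovery change in Ago2KO (0.88) and Syap1 the lowest (-1.50). Measured against untagged cells, enrichment was at least 2 for 75.4% of members in Ago2KO and 95.7% in Upf1KO, beside 81.2% and 91.1% of the other bound genes and 3.79% and 3.90% of all genes. These values subtract the same untagged libraries as the rule, so they are a description.

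**Figure D4:**
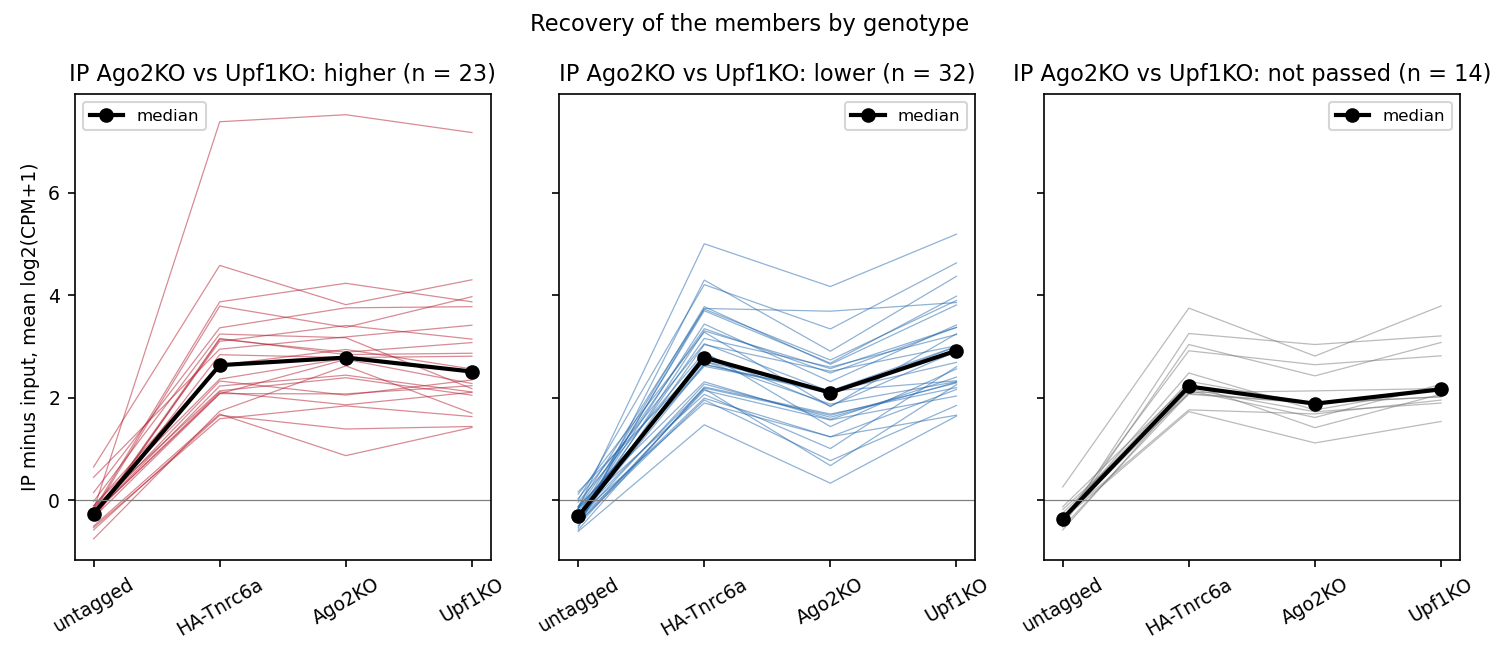
IP minus input, in mean log2(CPM + 1) over 6 libraries, by genotype, 1 line per member and the median in black, for the 23 members higher, the 32 lower and the 14 not passed in the IP test of Ago2KO against Upf1KO. Recovery dips in Ago2KO in the middle panel, where the median change from HA-Tnrc6a was -0.84, and not in the left panel, where it was 0.14. The panels were formed from the Ago2KO IP level, which is part of the recovery, so the contrast between them is in part fixed by that.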

How the data were processed

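The authors deposited 1 table of raw read counts per gene for 20171 genes and 48 libraries, with no normalization. Per the submitters' processing notes the tools were bcl2fastq 2.20 and STAR 2.7.3a, with genome GRCm38 (mm10). The counting tool and its strand setting are not given in the sources used here. The 48 other deposited per-library columns, headed RPKM, were not used. The deposited gene length column (other unit, bases) served for length medians.

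Groups came from the column headers, matched to genotype and fraction. CPM was computed from column totals. Differences were tested with edgeR 4.0.16 (limma 3.58.1, R 4.3.3): TMM scaling, filterByExpr, robust quasi-likelihood fit, 1 coefficient per group and column set, contrasts averaged over both sets, two-sided, Benjamini-Hochberg adjustment over all genes tested, threshold 0.05. Each fit held only the groups it compared. The labels describe triplicate dishes, so p-values measure the spread between dishes and libraries, not clones. With 1 coefficient per group and column set, p-values and standard errors hold the spread within a set, not between the sets. Library totals set the counting error, and without molecular identifiers reads may be copies of 1 molecule. The script was tested on simulated data.

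The members and gene lists were chosen with earlier results of these data known. Members named are, in the IP fit, the 10 most positive and 5 most negative with the same sign in both sets and an average level of 3 or more in log2 CPM, the 8 largest Ago2KO differences, the 5 largest enrichments, the genes nearest each threshold and the members of a list. Marker lists covered pluripotency, endoderm, mesoderm, neuroectoderm, fibroblasts and 2-cell-like cells. Summed mesoderm, fibroblast and 2-cell-like marker levels reached at most 21.5, 41.9 and 2.11 CPM in inputs. Alternatives were DESeq2 1.42.0, other scalings, no filter, a replicate block, each column set alone and each library left out.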

Additional observations from a re-analysis of the deposited data

Results flagged for a closer look

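For 8 of the named members the IP difference between Ago2KO and Upf1KO was unlike in the 2 column sets by the test of that difference itself (edgeR interaction, adjusted over all genes). The second set minus the first was 0.71 for Lefty1, 0.60 for Tbc1d9, 0.77 for Ccnd1 and 0.57 for Serpinb9b, and -0.55 for Zfp385a, -0.47 for Gm19531, -0.64 for Skida1 and -0.46 for Usp46, on the log2 scale. Among all 69 members 13 passed, beside 6.55% of all genes. The sets differ in depth, and the experiment behind each is not named in the headers.

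In 3 of 240 groups of 6 libraries, the gap between 1 library and the next took up most of the group's range. Gnb5 had a lowest untagged input of 7.72 CPM, with the next at 8.89 CPM. Frmd4a had a lowest Ago2KO IP of 163.5 CPM, with the next at 193 CPM. Ago1 had a lowest Ago2KO input of 111 CPM, with the next at 118 CPM. Chance flags about 1 group in 20 where all 6 libraries come from 1 population. Each group here joins both column sets, so that rate does not apply and the number flagged does not measure how even the libraries are.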

How the results depend on the processing

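The rule gave 45 members at an enrichment of 2.5, 120 at an Ago2KO threshold of 0.3 and 35 at 0.5. It gave 98 at an enrichment of 1.5, 83 with a pseudocount of 0.5 (68 of the 69 among them), 82 with TMM scaling (all 69), and 76 and 81 from columns 1 to 3 and 4 to 6 alone, each with 55 of the 69. Leaving out a column number gave 65 to 74, and leaving out single libraries, an alternative chosen after seeing the data, 61 to 83. Membership near the thresholds therefore depended on these settings.

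Between the IPs of both knockouts, 22 to 25 members were higher and 25 to 35 lower over all alternatives run. Input changes between Ago2KO and HA-Tnrc6a fell from 6065 genes to 3382 with columns 1 to 3 alone. That fit has fewer libraries, and their totals are lower than those of columns 4 to 6. The reason for the fall was not tested. Between the genotypes compared within a fraction, column numbers did not pair libraries (correlations of same-numbered deviations -0.04 to 0.08). Pairing of an IP with the input of the same number was not checked. With a replicate block 11386 genes passed in the IP comparison (10794 without), 25 members higher and 35 lower, and 6494 and 11539 genes in the input comparisons of Ago2KO and Upf1KO. For the named members, 578 of 600 alternative values kept direction and call, 9 lost the call (Skida1 in 4, and Serpinb9b, Nptx1, Tnrc6a, Usp46 and Ei24 with 1 column set alone), 4 gained it (Tmem64 and Frmd4a), and 9 changed sign. The sign changes were Skida1 with columns 1 to 3 (0.14), Gpt2 with columns 4 to 6 (0.032), Fadd with columns 4 to 6 (-0.13), and Ago1 with DESeq2-type size factors (0.015), DESeq2 (0.015) and columns 1 to 3 (0.12). Leaving out each library gave -0.046 to 0.062 for Ago1 and -0.030 to 0.088 for Fadd; the cause was not tested. Scaling moved the median of all genes by at most 0.04 on the log2 scale. Bcl11a rests on few input reads.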
